A study of Mus musculus with 40 samples.

Results

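Anergic follicular B cells, which live with their antigen, were compared with naive follicular B cells of the same antigen specificity by RNA sequencing. The comparison used 6 of the 40 samples of the study, 3 anergic and 3 naive libraries taken by their labels, from the 28 samples with deposited TPM values (reads scaled by gene length and by library total). All 6 libraries came from sorted C57BL/6 cells taken directly from mice, and polyadenylated RNA was sequenced. MD4, carried by the cells of every group, encodes a rearranged receptor that binds hen egg lysozyme (HEL). The anergic cells also come from mice with the ML5 transgene, which makes soluble HEL a self-antigen. The anergic libraries carried the genotypes Ikzf1 fl/fl (replicate 1), fl/+ (replicate 2) and fl/+ with Cd23-Cre (replicate 3). The naive libraries were fl/+ without Cre (replicates 1 and 2) and fl/+ with Cd23-cre (replicate 3). Cd23-cre removes the floxed part of Ikzf1, the gene of the transcription factor Ikaros, from B cells that switch on Cd23, so each Cre-carrying library was labelled as keeping 1 intact allele. A further group is cited beside some genes, namely 5 libraries of MD4 Ikzf1 fl/fl cells without Cre, sorted 1 day after intravenous HEL. The 3 anergic libraries differ in genotype, so they came from different mice, and naive replicate 3 differs in genotype from naive replicates 1 and 2. The labels do not say whether libraries of like genotype, such as naive replicates 1 and 2, came from separate mice. The p-values thus rest on a spread between libraries that may be partly technical. The labels state no age for the mice.

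Anergy is a state in which a mature lymphocyte that recognises a self-antigen persists but responds poorly when it meets that antigen. In MD4 mice with ML5, B cells bind soluble HEL throughout their life, keep a partly raised calcium level, lower their surface IgM and retain IgD. Chronic receptor signalling of this kind is known to engage calcium-driven transcription factors such as NFAT, the Egr and Nr4a families, and inhibitory phosphatases that hold back further signals.

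The files gave 14126573 to 16239940 recovered reads per anergic library and 16091616 to 17187279 per naive library. All 6 libraries were male by their Y-linked transcripts. Ikzf1 itself stood at 304, 319 and 179 TPM in anergic cells, against 142, 219 and 146 TPM in naive cells, with the Cre-carrying library last in each group. The groups overlapped and the difference did not pass (log2 difference 0.64 ± 0.25 SE, adjusted p = 0.168). Naive replicate 1, labelled without Cre, lay slightly below the naive library with Cre. The label of a follicular B cell fitted the markers: Fcer2a, which encodes CD23, stood at 1249, 1254 and 989 TPM in anergic cells, against 1169, 1129 and 1638 TPM in naive cells, and Cd79a, Pax5 and Cr2 were not called either. Transcripts of other cells were scarce. The 12 T cell markers summed to 1.22 to 2.18 TPM in anergic libraries, against 0.846 to 1.33 TPM in naive libraries, with Cd3e at or near 0. The 10 neutrophil markers summed to 0.338 to 0.716 TPM in anergic libraries, against 0.394 to 0.553 TPM in naive libraries, and the 12 myeloid markers to 8.54 to 72.6 TPM in anergic libraries, against 24.1 to 53.7 TPM in naive libraries. The 10 natural killer markers summed to 25.2 to 27.7 TPM in anergic libraries, against 20.9 to 24.5 TPM in naive libraries, with Gzma at 0 in all 6. No T cell or neutrophil marker reached the level tested, so none could be called. Of the natural killer markers 3 were tested and of the myeloid markers 7, and none of these was called. The part of other cells in the results below was not tested.

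A gene was called where limma's moderated test on log2(TPM + 1) gave an adjusted p under 0.05 over all genes tested. Of 10519 genes tested, 775 were called (7.37%): 471 were higher in anergic cells (4.48%) and 304 were lower (2.89%). A change of at least 2-fold was found for 306 of them (2.91%), 178 higher and 128 lower. The 3 anergic and the 3 naive libraries did not overlap for 3069 genes (29.2%), and the median log2 difference over all genes was 0.07. Median-ratio scaling, which sets the typical gene to no change, gave 410 genes higher and 442 lower, so the higher share of the calls was 48.1% after that scaling and 60.8% as deposited. The number of calls depended on single libraries: it was 357, 1172 and 1050 without anergic replicate 1, 2 or 3, and 319, 381 and 421 without naive replicate 1, 2 or 3. Apart from antigen receptor segments, the most raised genes by the naming rule were Ndrg1, Egr3, Nrgn and Egr2, and the most lowered were Lrrc25 and S100a6. Of 646 list genes tested, 16 reached 1 TPM in all 3 anergic libraries and in at most 1 naive library, and 10 the reverse. Such genes entered the test through the group where they were high, so list counts and medians that hold them describe the tested members only. Among the list genes, the called ones that entered through the anergic libraries were Nr4a3, Fosb, Spry2, Fcrl5, Bcl2a1d, Myb, Lef1, Ahr, Sdc1, Ccl4 and Rgs3. Those that entered through the naive libraries were Lair1, Gpr34, Itgam, Ifit1, Oas2 and Hspa1b. Outside the lists, Ndrg1, F2rl1 and Faah entered through the anergic libraries by the same rule, and Lifr, Eng and Mir7115 through the naive libraries. The limit holds for these genes and their lists below also where it is not repeated.

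**Figure D1:**
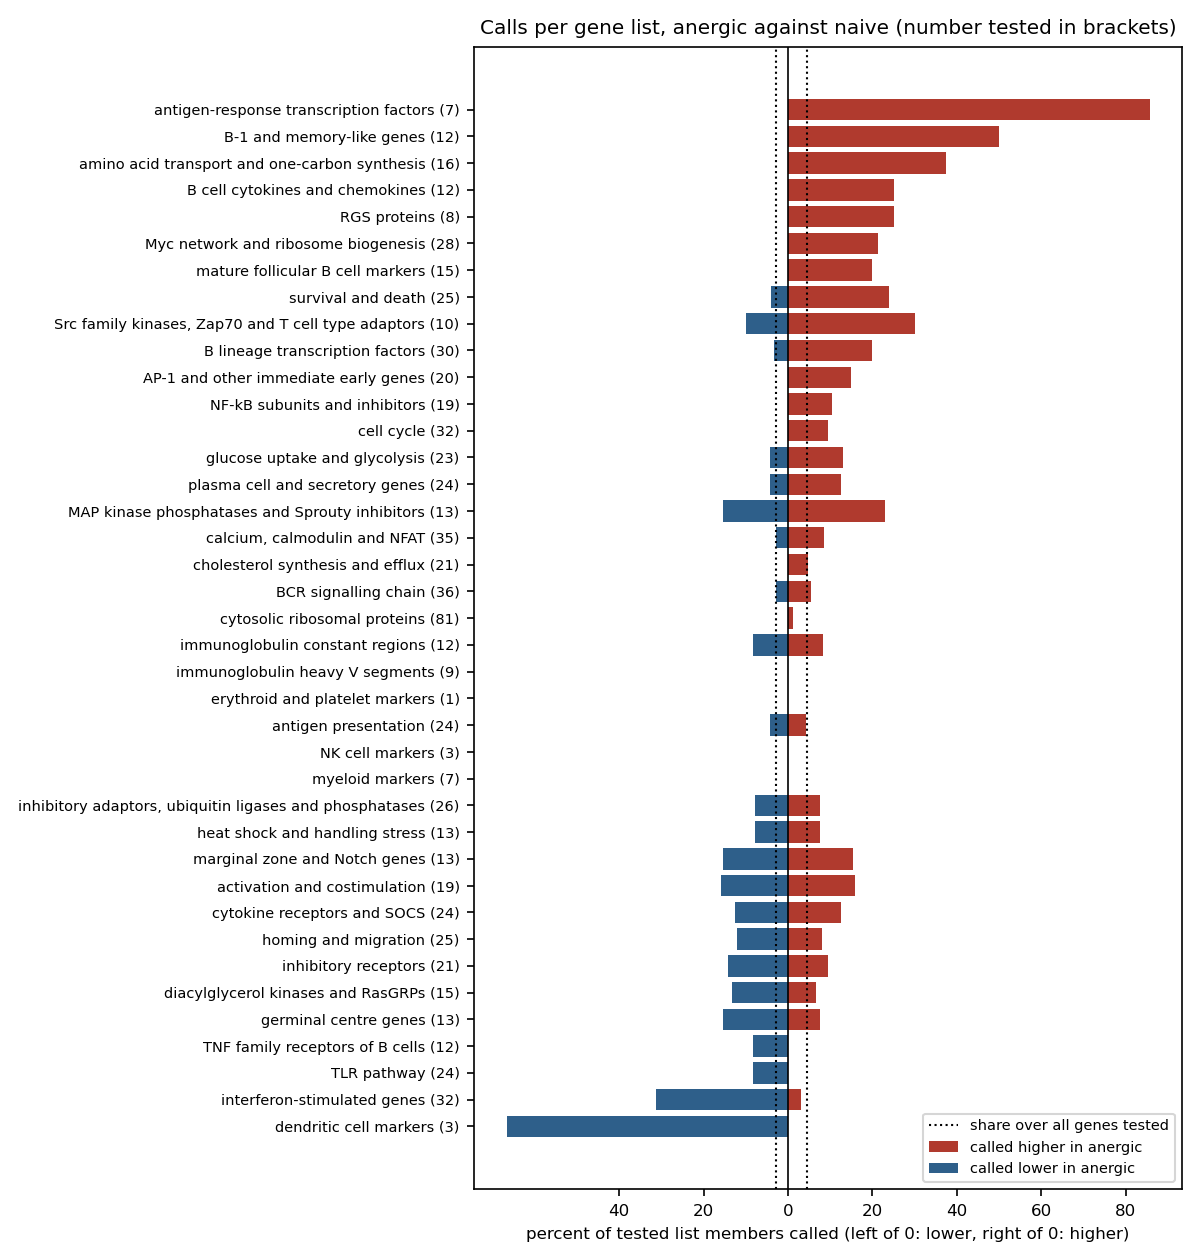
Percent of the tested members of each gene list that were called in anergic against naive cells. Higher calls lie to the right of 0 and lower calls to the left, with the number tested in brackets. The early and transitional B cell list and the kappa V list, which hold members tested only through the anergic libraries, are left out. Also not drawn are the T cell and neutrophil lists, with no member tested, and the Y-linked and X-inactivation list. Dotted lines mark the shares over all 10519 genes, 4.48% higher and 2.89% lower; 6 of 7 antigen-response factors were called higher and 10 of 32 interferon-stimulated genes lower.

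Most of the transcription factors that answer antigen were higher in anergic cells. Of 9 genes on this list 7 were tested. Of these, 6 were called higher and none lower, beside 4.48% and 2.89% of all genes tested. The median log2 difference of the tested list genes was 3.09, and 1 of them, Nr4a3, was tested through the anergic libraries alone. All 6 calls held with any 1 library left out. Egr3, a zinc finger factor induced by calcium signals that limits lymphocyte responses, had 247, 305 and 244 TPM in anergic libraries, against 12.2, 17.8 and 18.0 TPM in naive libraries. Every anergic library was far above every naive one (3.98 ± 0.16, adjusted p = 2.76e-05). Egr2, its close relative with a known part in lymphocyte tolerance, had 25.6, 23.1 and 31.2 TPM in anergic libraries, against 2.04, 1.85 and 0.957 TPM in naive libraries (3.42 ± 0.19, adjusted p = 7.63e-05). Egr1, the early response member of the family, had 91.6, 81.5 and 77.8 TPM in anergic libraries, against 23.4, 20.2 and 22.8 TPM in naive libraries (1.87 ± 0.10, adjusted p = 7.63e-05). The family rose together, but from different levels: on the TPM scale Egr3 was the most abundant of the trio in anergic cells, and Egr1 the most abundant in naive cells.

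Of the EGR corepressors, Nab2 rose and Nab1 did not pass the test. Nab2 had 63.8, 96.6 and 74.7 TPM in anergic libraries, against 9.10, 13.2 and 9.82 TPM in naive libraries (2.76 ± 0.18, adjusted p = 0.000172). The file marks Nab2 as overlapping another gene, so some of its reads may belong to its neighbour. Nab1 had 20.5, 22.0 and 27.9 TPM in anergic libraries, against 22.8, 15.7 and 30.0 TPM in naive libraries, and the groups overlapped (0.07 ± 0.22, adjusted p = 0.888). The orphan nuclear receptors, which are standard reporters of antigen receptor signalling, rose as well. Nr4a1, which encodes Nur77, had 79.6, 93.5 and 143 TPM in anergic libraries, against 6.93, 13.5 and 9.87 TPM in naive libraries (3.26 ± 0.26, adjusted p = 0.000486). Nr4a3 had 8.48, 12.2 and 11.9 TPM in anergic libraries, against 0.416, 0.476 and 0.262 TPM in naive libraries (3.09 ± 0.17, adjusted p = 7.63e-05). The groups did not overlap for either. Nr4a2 and Egr4 were below the level tested, Nr4a2 at 0.209, 0.154 and 0.509 TPM in anergic libraries and at 0, 0 and 0.0369 TPM in naive libraries.

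**Figure D2:**
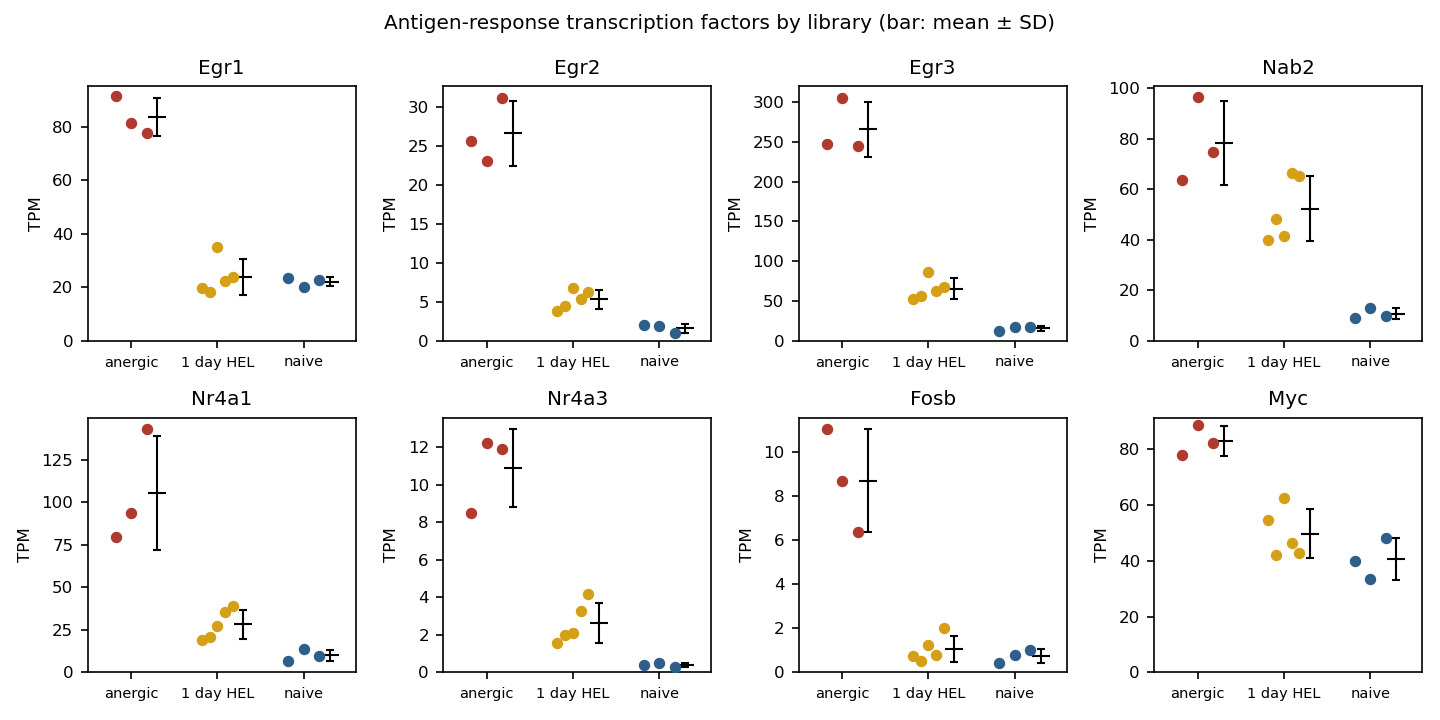
TPM of 8 transcription factors and cofactors in each library of anergic cells (n = 3), cells 1 day after HEL (n = 5) and naive cells (n = 3); points are libraries and bars give mean ± SD. The anergic libraries lie above all naive libraries in every panel, and Egr1 after 1 day of HEL lies near the naive level.

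Set beside cells that had met HEL for 1 day, the anergic cells were higher for most of these factors. That comparison called 4425 of 10491 genes (42.2%), 3860 higher (36.8%) and 565 lower (5.39%) in anergic cells as deposited, but 1073 higher and 1432 lower after median-ratio scaling, and the median over all genes was 0.23. HEL against naive cells, which shares libraries with both other comparisons, called 5015 of 10448 genes (48.0%), 1036 higher (9.92%) and 3979 lower (38.1%), with a median of -0.16. The genes given below as differing between anergic and HEL cells were picked from those called against naive cells, and each kept its sign after median-ratio scaling. The HEL libraries differ in sex (3 female, 2 male), and they share the naive libraries' transgenic receptor but not their Ikzf1 genotype. Egr1 had a median of 22.2 TPM 1 day after HEL, with a range of 18.4 to 35.0 TPM. It was higher in anergic than in HEL cells (1.80 ± 0.17, adjusted p = 0.000149), while HEL cells against naive cells gave 0.07 ± 0.17 (adjusted p = 0.744). Egr3 was intermediate after HEL, at 52.9 to 87.0 TPM, with 2.02 ± 0.15 for anergic against HEL cells (adjusted p = 4.17e-05) and 1.96 ± 0.16 for HEL against naive cells. Nr4a1 gave 1.87 ± 0.25 for anergic against HEL cells and 1.39 ± 0.25 for HEL against naive cells. Nab2 stood at 40.1 to 66.4 TPM after 1 day, where anergic against HEL cells gave 0.58 ± 0.19 (adjusted p = 0.032) as deposited and 0.33 after median-ratio scaling (adjusted p = 0.271).

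Promoters of 4 of the factors that rose are shown because these genes rose together. The sequences are from RefSeq on GRCm38.p6, 300 bases each around an annotated start (for Egr2, 1 of 5 listed), and the expression files use the older mm9 build. Capitals mark matches on either strand to the Egr motif GCGNGGG and to the core of the cAMP response element, TGACG; overlapping matches run together.
Egr2, chr10:67535249-67535548, plus strand: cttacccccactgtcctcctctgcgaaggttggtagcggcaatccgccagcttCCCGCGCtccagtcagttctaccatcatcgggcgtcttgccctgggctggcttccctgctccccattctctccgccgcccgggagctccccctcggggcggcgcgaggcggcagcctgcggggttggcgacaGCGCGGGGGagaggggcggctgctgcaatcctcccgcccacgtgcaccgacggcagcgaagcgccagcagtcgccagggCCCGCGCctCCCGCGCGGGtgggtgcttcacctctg
Nr4a1, chr15:101266596-101266895, plus strand: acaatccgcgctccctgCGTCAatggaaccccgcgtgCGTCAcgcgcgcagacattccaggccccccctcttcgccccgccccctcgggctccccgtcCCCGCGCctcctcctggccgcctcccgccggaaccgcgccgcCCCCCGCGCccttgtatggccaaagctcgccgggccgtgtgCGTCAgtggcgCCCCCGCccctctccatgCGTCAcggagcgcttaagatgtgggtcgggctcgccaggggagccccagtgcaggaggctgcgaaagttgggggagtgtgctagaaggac
Nr4a3, chr4:48045055-48045354, plus strand: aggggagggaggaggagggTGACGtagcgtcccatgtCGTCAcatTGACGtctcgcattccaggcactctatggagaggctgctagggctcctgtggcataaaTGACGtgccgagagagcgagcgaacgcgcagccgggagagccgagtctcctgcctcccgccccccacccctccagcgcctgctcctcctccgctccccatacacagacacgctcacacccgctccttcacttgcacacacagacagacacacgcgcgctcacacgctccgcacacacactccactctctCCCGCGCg
Fosb, chr7:19309996-19310295, minus strand: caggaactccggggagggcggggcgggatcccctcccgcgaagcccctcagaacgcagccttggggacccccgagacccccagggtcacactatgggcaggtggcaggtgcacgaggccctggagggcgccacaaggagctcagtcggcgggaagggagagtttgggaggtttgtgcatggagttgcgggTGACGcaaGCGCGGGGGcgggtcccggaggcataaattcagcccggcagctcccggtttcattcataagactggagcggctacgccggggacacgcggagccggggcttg
The window of Egr2 held 6 Egr matches and no TGACG, that of Nr4a1 4 of each, that of Nr4a3 1 Egr match and 4 TGACG, and that of Fosb 2 Egr matches and 1 TGACG. At least 1 Egr match was found in 23.2% of 32851 mouse promoters and in 39.9% of the 7846 promoters matched to tested genes, and at least 1 TGACG in 20.8% and 34.3%. Among promoters of genes called higher in anergic cells the shares were 50.6% for the Egr motif and 29.6% for TGACG (n = 334), and among those of genes called lower 37.2% and 21.7% (n = 226).

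Other immediate early genes were mostly not called. Of 20 tested genes of the AP-1 and immediate early list, 3 were called higher and none lower, beside 4.48% and 2.89% of all genes tested. The list median was 0.11. Fosb, an AP-1 subunit, had 11.0, 8.67 and 6.35 TPM in anergic libraries, against 0.416, 0.801 and 1.01 TPM in naive libraries (2.46 ± 0.22, adjusted p = 0.000652), and after 1 day of HEL its libraries spanned 0.514 to 2.02 TPM. Klf10, a TGF-beta inducible repressor, averaged 9.79 ± 1.87 TPM in anergic cells and 2.70 ± 0.483 TPM in naive cells (SD, n = 3 each). Myc, the growth regulator, rose by 1.03 ± 0.14 (adjusted p = 0.00393), with 77.8, 88.5 and 82.2 TPM in anergic libraries against 39.96, 33.4 and 48.2 TPM in naive libraries. Fos (9.10, 6.28 and 8.58 TPM in anergic libraries, against 7.23, 11.2 and 15.7 TPM in naive libraries), Jun and Junb were not called, with log2 differences of -0.42, -0.35 and -0.24. Cd69, an early activation marker, was not called either (-0.43, adjusted p = 0.112).

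Inhibitors of the MAP kinase pathway split. Of 13 tested phosphatases and Sprouty-type inhibitors 3 were called higher and 2 lower (median 0.12), beside 4.48% and 2.89% of all genes tested. Dusp4, a nuclear phosphatase of ERK and its relatives, had 84.7, 106 and 48.9 TPM in anergic libraries, against 4.16, 12.8 and 11.1 TPM in naive libraries (3.02 ± 0.40, adjusted p = 0.00359), and it was higher than after 1 day of HEL (1.75 ± 0.23, adjusted p = 0.000552). Dusp5, another nuclear ERK phosphatase, was lower (-1.77 ± 0.29, adjusted p = 0.00992), with 5.58, 6.36 and 11.1 TPM in anergic libraries against 18.2, 33.0 and 34.6 TPM in naive libraries. Leaving out anergic replicate 1 raised its adjusted p to 0.0573. Spry2, a Sprouty inhibitor of receptor signals to ERK, was called higher at low levels (1.10, adjusted p = 0.0119), with an adjusted p of 0.0501 without naive replicate 2. The calls of Spred1, higher, and Dusp3, lower, were each lost without anergic replicate 1, naive replicate 1, 2 or 3, and for Dusp3 also without anergic replicate 3, with adjusted p-values of up to 0.112 and 0.164.

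Calls in the receptor and its core signalling chain were near the shares over all genes tested, 4.48% higher and 2.89% lower. Of 36 tested members 2 were called higher and 1 lower, with a median of 0.05. Cd79a and Cd79b, the signalling subunits of the receptor, gave -0.06 and 0.05, and the kinases Lyn and Syk gave 0.08 and -0.07, none of them called. The 3 calls were Blk, an Src-family kinase (0.41), Vav3, an exchange factor (0.96), and Cd81, a tetraspanin of the B cell coreceptor (-0.52, marked as overlapping another gene). Each was lost without anergic replicate 1 and without naive replicate 2 or 3, and those of Blk and Cd81 also without naive replicate 1, with adjusted p-values of up to 0.138, 0.095 and 0.0804.

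Src-family and related signalling genes outside that chain included clear increases. Of 10 tested, 3 were called higher and 1 lower (median 0.02), beside 4.48% and 2.89% of all genes tested. All 4 calls held with any 1 library left out. Lck, the Src-family kinase best known from T cells, had 99.0, 78.2 and 114 TPM in anergic libraries, against 13.1, 14.8 and 7.68 TPM in naive libraries (2.96 ± 0.23, adjusted p = 0.000447). The groups did not overlap, and Cd3e stood at 0.0975, 0 and 0 TPM in the same anergic libraries. Lck is marked as overlapping another gene. Tec, a kinase of the Btk family, rose by 0.91 ± 0.10 (adjusted p = 0.00191) and Ubash3b, a phosphatase that dampens Syk and Zap70 signals, by 1.31 ± 0.12 (adjusted p = 0.000666).

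Inhibitory receptors and their adaptors were not raised as a group. Of 21 tested inhibitory receptors 2 were called higher and 3 lower (median 0.05). Of 26 tested inhibitory adaptors, ubiquitin ligases and phosphatases 2 were higher and 2 lower (median 0.15). The shares over all genes tested were 4.48% higher and 2.89% lower. Cd72, a B cell receptor inhibitor that recruits the phosphatase SHP-1, had 434, 445 and 504 TPM in anergic libraries, against 197, 211 and 218 TPM in naive libraries (1.14 ± 0.09, adjusted p = 0.000505), and it is marked as overlapping another gene. Ceacam1, another inhibitory receptor, was lower (-0.71 ± 0.12, adjusted p = 0.00939). The calls of Fcrl5 (1.80), Lair1 (-1.29) and Entpd1 (-0.72) were lost without naive replicate 1, and that of Fcrl5 also without anergic replicate 1, with adjusted p-values of up to 0.0761, 0.0589 and 0.0513. Cd22 (0.10), Cd5 (0.44), Ptpn6, which encodes SHP-1 (-0.16), Inpp5d, which encodes SHIP1 (-0.13), and Cblb (-0.01) were not called, and Pdcd1 was at 0 in 5 of the 6 libraries. Among adaptors, Tagap, a GTPase-activating protein, averaged 32.8 ± 3.52 TPM in anergic cells and 10.6 ± 2.63 TPM in naive cells (SD, n = 3 each; 1.57 ± 0.17, adjusted p = 0.00166). The receptor phosphatase Ptprj (-1.13 ± 0.10, adjusted p = 0.000666) and the Src-like adaptor Sla (-1.04 ± 0.11, adjusted p = 0.00153) were lower. The call of Ptpn7 (0.43), a phosphatase of MAP kinases, was lost without anergic replicate 1 or any naive library, with an adjusted p of up to 0.155.

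Calcium and Ras regulators held some of the widest differences next to many that were not called. Of 35 tested genes of the calcium, calmodulin and NFAT list, 3 were called higher and 1 lower (median 0.00), beside 4.48% and 2.89% of all genes tested. Nrgn encodes neurogranin, a small protein that binds calmodulin when calcium is low. It had 85.7, 106 and 237 TPM in anergic libraries, against 8.67, 7.63 and 8.21 TPM in naive libraries (3.83 ± 0.32, adjusted p = 0.000505). Pcp4, a relative with the same calmodulin-binding motif, had 19.0, 21.9 and 64.9 TPM in anergic libraries, against 4.02, 3.67 and 2.69 TPM in naive libraries (2.82 ± 0.40, adjusted p = 0.00535). Both were highest in the anergic library with Cre, and in neither gene did the groups overlap. After 1 day of HEL they differed: Nrgn stood at 47.3 to 60.8 TPM and Pcp4 at 1.45 to 3.18 TPM, with 2.56 ± 0.09 and -0.39 ± 0.18 for HEL against naive cells (adjusted p = 1.74e-07 and 0.0991). Nfatc1, the inducible NFAT member, was called at 0.75 and Stac2, an adaptor of voltage-gated calcium channels, at -1.27. Both calls were lost without anergic replicate 1 or naive replicate 2 or 3, that of Nfatc1 also without naive replicate 1 and that of Stac2 without anergic replicate 3, with adjusted p-values of up to 0.145 and 0.144. Of 15 tested diacylglycerol kinases and Ras regulators 1 was called higher and 2 lower. The calls of Rasa1 (0.44) and Rasal1 (-0.60), which switch off Ras, were lost without anergic replicate 1 or naive replicate 1 or 2, and that of Rasa1 also without anergic replicate 2 or naive replicate 3, with adjusted p-values of up to 0.154 and 0.137. Rasgrp4, a Ras exchange factor, had 2.96, 3.51 and 2.38 TPM in anergic libraries, against 12.3, 12.01 and 14.1 TPM in naive libraries (-1.81 ± 0.14, adjusted p = 0.000459), and it is marked as overlapping another gene. Dgka and Dgkz, the kinases that remove diacylglycerol, gave -0.02 and 0.16 and were not called.

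**Figure D3:**
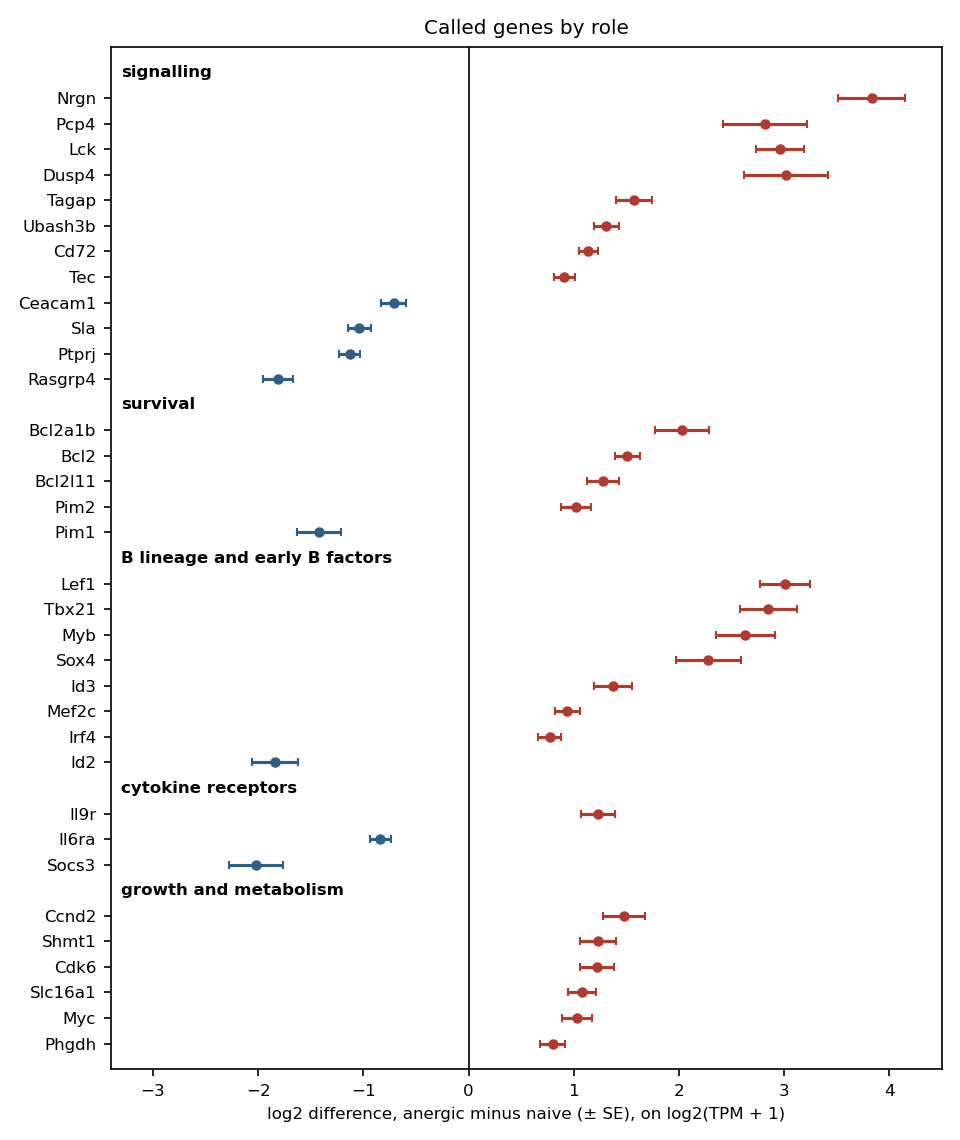
Log2 difference, anergic minus naive, on the log2(TPM + 1) scale for called genes grouped by role, with bars of 1 SE from the fit to 3 anergic and 3 naive libraries. The genes drawn kept their calls with any 1 library left out; Nrgn (3.83) lies farthest to the right and Socs3 (-2.02) farthest to the left.

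Immunoglobulin transcripts changed class balance. IGHD, the constant region of IgD, had 5522, 4200 and 4505 TPM in anergic libraries, against 1466, 2313 and 1175 TPM in naive libraries (1.57 ± 0.23, adjusted p = 0.00607). IGHM, the constant region of IgM, had 7994, 8314 and 8309 TPM in anergic libraries, against 22420, 20300 and 13380 TPM in naive libraries (-1.15 ± 0.18, adjusted p = 0.00824), and its adjusted p was 0.0509 without anergic replicate 1. The groups did not overlap for either. The ratio of IGHD to IGHM was 0.691, 0.505 and 0.542 in anergic libraries, 0.275 to 0.313 in the 5 HEL libraries, and 0.0654, 0.114 and 0.0878 in naive libraries. Reads of the transgene and of the cells' own loci cannot be told apart in these rows. Zfp318, the zinc finger protein that is needed for IgD to be made alongside IgM, had 46.7, 44.0 and 33.7 TPM in anergic libraries, against 10.7, 15.0 and 13.4 TPM in naive libraries (1.60 ± 0.16, adjusted p = 0.00112). Faim3, which encodes an Fc receptor for IgM, had 3295, 3621 and 3071 TPM in anergic libraries, against 512, 769 and 756 TPM in naive libraries (2.31 ± 0.16, adjusted p = 0.000252). IGHM, Zfp318 and Faim3 were chosen after their values were seen. For IGHM and Faim3, anergic against HEL cells gave -0.03 ± 0.07 (adjusted p = 0.735) and 0.19 ± 0.10 (adjusted p = 0.145). After median-ratio scaling these were -0.29 (adjusted p = 0.0392) and -0.07 (adjusted p = 0.634). IGHD was higher in anergic than in HEL cells (0.91 ± 0.11, adjusted p = 0.000362). Igkc, the kappa constant region, had 22210, 14460 and 26590 TPM in anergic libraries, against 44160, 36960 and 22300 TPM in naive libraries, and was not called (-0.70 ± 0.29, adjusted p = 0.199).

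Igj and some germinal centre transcripts were highest in the naive libraries with the most IGHM. They were chosen after their values were seen. Igj, the joining chain of secreted IgM, had 2.27, 0.674 and 0.757 TPM in anergic libraries, against 4.85, 2.99 and 1.23 TPM in naive libraries. It is 1 of 24 tested plasma cell and secretory genes. Of these, 3 were called higher in anergic cells and 1 lower (median 0.04), beside 4.48% and 2.89% of all genes tested. Sdc1 (3.24) and Derl3 (1.68) were among those higher, and Fkbp11 (-1.42) was lower. S1pr2, Mef2b and Basp1, germinal centre transcripts, were likewise highest in naive replicate 1 and next in naive replicate 2, the order of IGHM and Igkc among the naive libraries, and none was called. Their part in the IGHM result was not tested, and in bulk RNA fewer cells of a type and less RNA per cell cannot be told apart. The germinal centre list as a whole summed to 677, 771 and 627 TPM in anergic libraries, against 601, 585 and 573 TPM in naive libraries. Of its 13 tested genes, with a median of -0.66, 1 was called higher (Il21r, 0.54) and 2 lower (Plxnb2, -0.85, marked as overlapping another gene, and Sema7a, -0.66). All 3 calls were lost without anergic replicate 1 or naive replicate 1, that of Il21r also without naive replicate 2, that of Plxnb2 without naive replicate 3, and that of Sema7a without anergic replicate 2 or 3 or naive replicate 2, with adjusted p-values of up to 0.0902, 0.109 and 0.183.

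**Figure D4:**
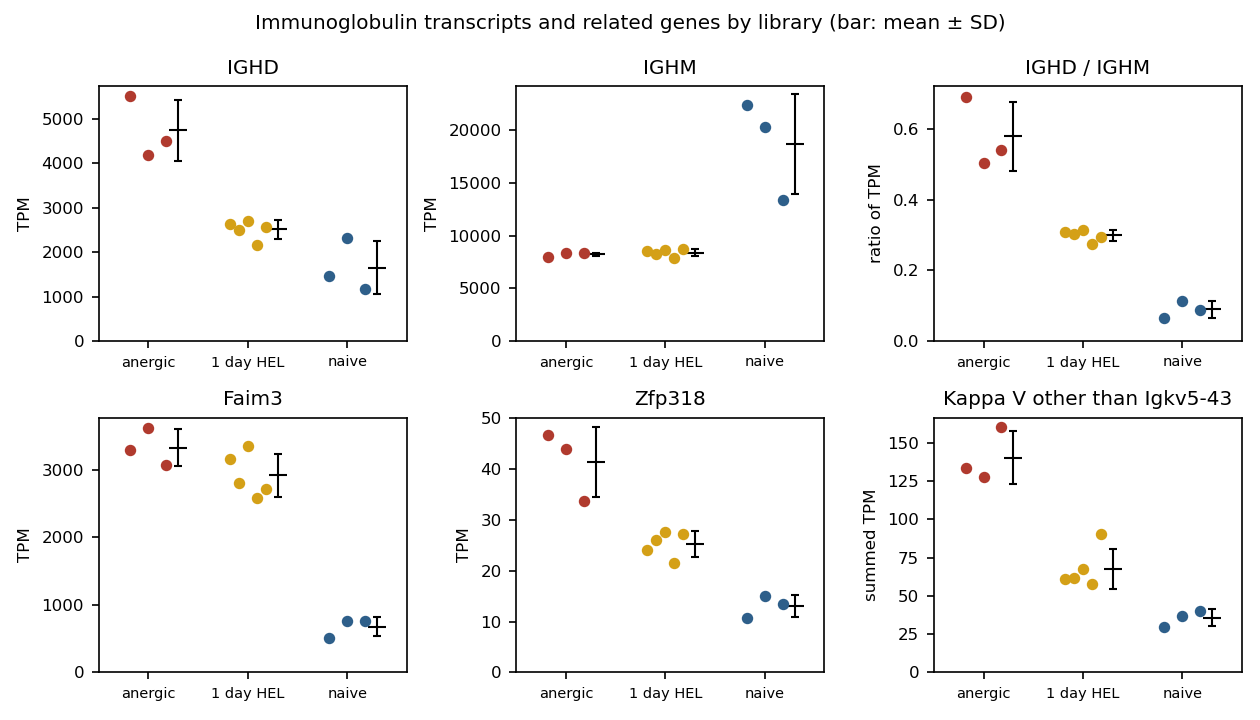
TPM of IGHD, IGHM, Faim3 and Zfp318, the ratio of IGHD to IGHM, and the summed TPM of kappa V segments other than Igkv5-43, in anergic libraries (n = 3), libraries 1 day after HEL (n = 5) and naive libraries (n = 3); points are libraries and bars give mean ± SD. The ratio lies between 0.505 and 0.691 in anergic libraries and between 0.0654 and 0.114 in naive libraries.

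The kappa variable segments split in the same way in all libraries, into 1 dominant segment and many rare ones; this family was chosen after its values were seen. Igkv5-43 held most kappa V transcripts, with 2407, 2004 and 3291 TPM in anergic libraries against 7372, 6394 and 4107 TPM in naive libraries (-1.20 ± 0.24, adjusted p = 0.0234). Its call was lost without anergic replicate 1, naive replicate 1 or naive replicate 2, with an adjusted p of up to 0.109. The other 102 kappa V segments summed to 134, 128 and 160 TPM in anergic libraries, 57.5 to 90.4 TPM in HEL libraries, and 29.5, 37.0 and 40.4 TPM in naive libraries. Of these 102 segments, 63, 60 and 62 had reads in the anergic libraries, against 15, 18 and 36 in the naive libraries. For 36 segments every anergic library exceeded every naive one, and for none was it the reverse. Over all genes tested the groups did not overlap for 29.2%, counting both directions, but most of the 102 segments were below the level tested. Of 21 segments tested, 13 reached 1 TPM in all 3 anergic libraries and in at most 1 naive library, so the calls among them are not counted here. Igkv1-135 had 24.4, 18.1 and 33.9 TPM in anergic libraries, against 0, 0 and 4.09 TPM in naive libraries. Igkv16-104 had 14, 18 and 23 recovered reads in anergic libraries, against 0 in all 3 naive libraries, which makes it at least 6.61-fold higher against a floor of 3 reads per naive library (counting error only). Reads of near-identical segments can be assigned to the wrong one, so single segments are uncertain. Heavy-chain V segments other than Ighv3-8 summed to 154, 139 and 141 TPM in anergic libraries, against 290.0, 279 and 161 TPM in naive libraries, and none of 9 tested was called, with 0 to 2 lower calls when 1 library was left out.

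Survival genes included clear increases. Of 25 tested, 6 were called higher and 1 lower (median 0.24), beside 4.48% and 2.89% of all genes tested. Bcl2, the antiapoptotic founder of its family, had 52.1, 54.7 and 45.2 TPM in anergic libraries, against 15.7, 19.9 and 16.2 TPM in naive libraries (1.51 ± 0.12, adjusted p = 0.000492). Its antagonist Bcl2l11, which encodes the proapoptotic BIM known to remove autoreactive B cells, rose alongside, with 35.7, 44.3 and 49.6 TPM in anergic libraries against 15.6, 15.9 and 19.7 TPM in naive libraries (1.28 ± 0.15, adjusted p = 0.00197). The groups did not overlap for either. Bcl2a1b, a further antiapoptotic gene with near-identical copies among which reads may be split, rose by 2.03 ± 0.26 (adjusted p = 0.00322). After 1 day of HEL it stood at 24.6 to 29.0 TPM (-0.02 ± 0.16 for anergic against HEL cells, adjusted p = 0.931). The kinases Pim2 and Pim1 went in opposite directions. Pim2 rose by 1.02 ± 0.14 (adjusted p = 0.00393), and Pim1 had 50.9, 60.6 and 31.6 TPM in anergic libraries, against 114, 124 and 138 TPM in naive libraries (-1.42 ± 0.21, adjusted p = 0.0067). Mcl1, an essential survival gene of B cells, and Bcl2l1, which encodes Bcl-xL, were not called (0.32 and -0.22). The calls of Bcl2a1d (1.43) and Xiap (0.44) were lost without anergic replicate 1, and that of Xiap also without anergic replicate 3 or any naive library, with adjusted p-values of up to 0.0549 and 0.187.

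Of 17 listed genes of early and transitional B cells 10 were under the level tested, and Myb and Lef1 reached it in at most 1 naive library, so the share called is not read as a result. Among the transcription factors, Myb, Lef1 and Sox4 were called higher, and all 3 calls held with any 1 library left out. Myb, a progenitor factor, had 4.86, 5.87 and 12.1 TPM in anergic libraries, against 0.297, 0.237 and 0.392 TPM in naive libraries (2.63 ± 0.28, adjusted p = 0.00164). Lef1, a Wnt pathway factor of early B cells, had 9.004, 13.2 and 11.99 TPM in anergic libraries, against 0.304, 0.243 and 1.17 TPM in naive libraries (3.01 ± 0.24, adjusted p = 0.000487). Sox4, needed for early B cell development, had 20.2, 31.1 and 38.1 TPM in anergic libraries, against 3.87, 3.95 and 8.73 TPM in naive libraries (2.28 ± 0.31, adjusted p = 0.00412). None of the 3 was near its anergic level 1 day after HEL, where Myb stood at 0.341 to 0.769 TPM, Lef1 at 0.763 to 1.21 TPM and Sox4 at 2.21 to 4.90 TPM. Anergic against HEL cells gave 2.43 ± 0.24, 2.68 ± 0.14 and 2.78 ± 0.22 (adjusted p = 0.000154, 8.37e-06 and 4.59e-05). Rag1 and Dntt, which rearrange receptor genes in precursors, were at 0 in all 6 libraries, and Rag2 did not exceed 0.198 TPM. The surface gene Cd93, a marker of transitional cells, was called higher (0.93), and Vpreb3 (-0.83) and Cd24a (-0.64) were called lower. These calls were lost without anergic replicate 1 or naive replicate 1, those of Cd93 and Vpreb3 also without naive replicate 2 and those of Vpreb3 and Cd24a without naive replicate 3, with adjusted p-values of up to 0.0847, 0.0941 and 0.0762.

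Among B lineage transcription factors 6 of 30 were called higher and 1 lower (median 0.15), beside 4.48% and 2.89% of all genes tested. Id3, an inhibitor of E proteins that is induced by receptor signals, had 374, 432 and 288 TPM in anergic libraries, against 112, 148 and 158 TPM in naive libraries (1.37 ± 0.18, adjusted p = 0.00337). Its relative Id2 was lower, with 5.07, 2.84 and 5.99 TPM in anergic libraries against 17.7, 21.2 and 16.8 TPM in naive libraries (-1.84 ± 0.22, adjusted p = 0.00238). The 2 inhibitors thus moved in opposite directions with no overlap of groups. Irf4, a factor of activated and plasma cells whose amount follows receptor signal strength, rose by 0.77 ± 0.11 (adjusted p = 0.00578), and Mef2c, a calcium-responsive factor of B cells, by 0.94 ± 0.12 (adjusted p = 0.00281). The calls of Foxo1 (0.64), Satb1 (0.67) and Irf8 (0.39) were lost without anergic replicate 1 or naive replicate 1 or 2, and that of Irf8 also without anergic replicate 3 or naive replicate 3, with adjusted p-values of up to 0.102, 0.12 and 0.219. Pax5, Ikzf3 and Bach2, the last marked as overlapping another gene, were not called (0.21, 0.10 and 0.59).

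Genes known from B-1, memory and plasma cells included some of the most raised. On the B-1 and memory-like list 6 of 12 tested genes were called higher and none lower, with a median of 0.71. Of these genes 2, Ahr and Fcrl5, were tested through the anergic libraries alone. The shares over all genes tested were 4.48% higher and 2.89% lower. Tbx21, which encodes T-bet, had 26.4, 26.2 and 17.9 TPM in anergic libraries, against 2.64, 3.69 and 1.21 TPM in naive libraries (2.85 ± 0.27, adjusted p = 0.000949). Ahr, the aryl hydrocarbon receptor, was at 2.58, 1.36 and 3.56 TPM in anergic libraries, against 0.0612, 0.0816 and 0.112 TPM in naive libraries (1.64 ± 0.25, adjusted p = 0.00733). Bhlhe40, a transcriptional repressor, averaged 33.1 ± 8.05 TPM in anergic cells and 6.68 ± 2.99 TPM in naive cells (SD, n = 3 each; 2.19 ± 0.27, adjusted p = 0.00265), and it is marked as overlapping another gene. The calls of Bhlhe41 (0.98), Spn (1.01) and Fcrl5 were lost without anergic replicate 1 or naive replicate 1, those of Bhlhe41 and Spn also without naive replicate 2 and that of Bhlhe41 without naive replicate 3, with adjusted p-values of up to 0.115, 0.116 and 0.0761. Of 24 tested plasma cell and secretory genes 3 were higher and 1 lower (median 0.04), and all 4 calls held with any 1 library left out. Sdc1, which encodes the plasma cell marker syndecan-1, had 8.62, 14.8 and 12.6 TPM in anergic libraries, against 0.330, 0.330 and 0.404 TPM in naive libraries (3.24 ± 0.20, adjusted p = 0.000105). Derl3, an endoplasmic reticulum export gene, rose by 1.68 ± 0.17 (adjusted p = 0.00107), while the secretory chaperone Fkbp11 fell by 1.42 on the log2 scale (± 0.12, adjusted p = 0.000489). Xbp1, the secretory regulator of plasma cells, was not called (adjusted p = 0.997), and Prdm1, which encodes Blimp-1, was below the level tested at 0.790, 0.777 and 1.11 TPM in anergic libraries, against 0.240, 0.262 and 0.120 TPM in naive libraries.

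Receptors for cytokines moved in both directions. Of 24 tested receptor and SOCS genes 3 were called higher and 3 lower (median 0.09), beside 4.48% and 2.89% of all genes tested. Il9r, the interleukin 9 receptor chain, had 234, 226 and 178 TPM in anergic libraries, against 88.2, 74.7 and 108 TPM in naive libraries (1.23 ± 0.16, adjusted p = 0.00322). After 1 day of HEL it was below the naive level, at 42.0 to 52.8 TPM (2.09 ± 0.11 for anergic against HEL cells, adjusted p = 8.37e-06; -0.86 ± 0.11 for HEL against naive cells, adjusted p = 0.000243). Socs3, an inhibitor of interleukin 6 type signals, had 12.4, 12.1 and 12.7 TPM in anergic libraries, against 65.2, 32.8 and 71.8 TPM in naive libraries (-2.02 ± 0.26, adjusted p = 0.00322). Il6ra, the interleukin 6 receptor, was lower as well (-0.84 ± 0.10, adjusted p = 0.0027). The calls of Il21r (0.54), Il27ra (0.53, marked as overlapping another gene) and Ifngr1 (-0.62) were lost without naive replicate 1, those of Il21r and Il27ra also without naive replicate 2 and that of Il21r without anergic replicate 1, with adjusted p-values of up to 0.0902, 0.0793 and 0.0502. Of 12 tested cytokines and chemokines 3 were called higher and none lower (median 0.12). Ccl4, a chemokine induced by receptor signals, had 5.31, 6.64 and 15.7 TPM in anergic libraries, against 0.679, 0.170 and 0 TPM in naive libraries (2.89 ± 0.36, adjusted p = 0.00296). Gdf11, a TGF-beta family ligand, rose by 1.61 ± 0.23 (adjusted p = 0.00501), and Il12a, a chain of interleukins 12 and 35, by 1.08 ± 0.18 (adjusted p = 0.012; 0.0686 without anergic replicate 1). Il10 was at 0 in all 3 anergic libraries and in 2 of 3 naive ones.

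Costimulatory and antigen presentation genes showed few stable differences. Of 19 tested activation and costimulation genes 3 were higher and 3 lower (median -0.07), beside 4.48% and 2.89% of all genes tested. Only Slamf7, a receptor of the SLAM family, kept its call with any 1 library left out. It had 21.9, 16.8 and 24.1 TPM in anergic libraries, against 8.34, 8.62 and 11.0 TPM in naive libraries (1.08 ± 0.16, adjusted p = 0.00628). The other 5, Cd83 (0.78), Ly9 (0.58), Cd40 (-0.35), Tnfsf9 (-0.68) and Cd24a (-0.64), each lost the call without anergic replicate 1 and without naive replicate 1, with adjusted p-values of up to 0.155, 0.1002, 0.163, 0.157 and 0.0762. Cd86, the costimulator that T cell help depends on, was not called, with 12.03, 6.55 and 12.9 TPM in anergic libraries against 12.5, 12.8 and 13.6 TPM in naive libraries, and Cd80 was under 0.34 TPM in every library. Among 24 antigen presentation genes H2-Ob (0.48) was called higher and Ifi30 (-0.85) lower, and both calls were lost without anergic replicate 1 or naive replicate 1, that of H2-Ob also without naive replicate 2 and that of Ifi30 without naive replicate 3 (adjusted p of up to 0.103 and 0.0605). H2-Aa, a class II chain, gave 0.06.

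Calls among growth and metabolic genes were mostly higher, while the list medians lay between -0.09 and 0.39. Over all genes tested 4.48% were called higher and 2.89% lower, with a median of 0.07. Of 32 tested cell cycle genes 3 were called higher and none lower (median -0.09). Ccnd2, the D-type cyclin that B cells use after receptor signals, had 90.9, 74.8 and 138 TPM in anergic libraries, against 36.3, 35.4 and 32.2 TPM in naive libraries (1.48 ± 0.20, adjusted p = 0.0043), and Cdk6, its partner kinase, rose by 1.22 ± 0.16 (adjusted p = 0.00352). The call of Cdk4 (0.47) was lost without anergic replicate 1 or any naive library (adjusted p of up to 0.11). Mki67 and Top2a, which mark dividing cells, were not called and stayed under 5 TPM in all 6 libraries. Of 28 tested genes of the Myc network and ribosome biogenesis 6 were called higher and none lower (median 0.19), and Myc alone kept its call with any 1 library left out. Without naive replicate 3, naive replicate 1 or naive replicate 2 the calls of Npm1 (0.71), Ncl (0.59), Mxd4 (0.98), Nop56 (0.37) and Gnl3 (0.62) were all lost, with adjusted p-values of up to 0.158, 0.0965, 0.0902, 0.22 and 0.161; Nop56 and Gnl3 are marked as overlapping other genes. All of these but Mxd4 were also lost without anergic replicate 1, and Npm1, Nop56 and Gnl3 without anergic replicate 3. Of 16 tested amino acid transport and one-carbon genes 6 were called higher and none lower (median 0.39). Shmt1, a serine hydroxymethyltransferase, averaged 15.6 ± 2.43 TPM in anergic cells and 6.12 ± 1.37 TPM in naive cells (SD, n = 3 each; 1.23 ± 0.17, adjusted p = 0.00448), and Phgdh, the first enzyme of serine synthesis, rose by 0.80 ± 0.12 (adjusted p = 0.00655). The calls of Slc7a5, Slc38a1, Psat1 and Shmt2 (0.54, 0.95, 1.04 and 0.46; Shmt2 is marked as overlapping another gene) were lost without anergic replicate 1 or naive replicate 1, and all but that of Slc38a1 also without naive replicate 2 or 3, with adjusted p-values of up to 0.0691, 0.0638, 0.0806 and 0.129. Of 23 tested glycolysis genes 3 were called higher and 1 lower (median 0.07). Slc16a1, a lactate transporter, Hk2, a hexokinase, and Pfkp, a phosphofructokinase marked as overlapping another gene, rose by 1.08 ± 0.13, 0.83 ± 0.14 and 0.82 ± 0.10 (adjusted p = 0.00248, 0.0103 and 0.00281). With only the libraries without Cd23-cre the adjusted p of Hk2 was 0.0502. The lower call of Pfkm (-1.02), another phosphofructokinase, was lost without anergic replicate 1 or naive replicate 1 or 3, with an adjusted p of up to 0.0719.

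Calls among interferon-stimulated genes were mostly lower in anergic cells. Of 32 tested, 10 were called lower, 1 higher and 21 were not called, with a median of -0.71. Among all genes tested 2.89% were called lower and 4.48% higher. Of the 10 lower calls, 4 held with any 1 library left out. Oasl1, an antiviral synthetase-like protein, had 12.2, 11.8 and 14.0 TPM in anergic libraries, against 33.1, 33.2 and 29.5 TPM in naive libraries (-1.27 ± 0.11, adjusted p = 0.000505). Irf7, the factor that amplifies type I interferon, had 20.3, 22.6 and 30.6 TPM in anergic libraries, against 57.4, 62.1 and 58.1 TPM in naive libraries (-1.26 ± 0.15, adjusted p = 0.00229). Oas3, an oligoadenylate synthetase, and Bst2, an antiviral membrane protein, were lower by the same test (-1.84 ± 0.22, adjusted p = 0.00265, and -0.99 ± 0.14, adjusted p = 0.00467). Gbp3, a guanylate-binding protein better known as a target of interferon gamma, was higher (1.32 ± 0.16, adjusted p = 0.00281). The other 6 calls, Ifit1, Mx1, Mx2, Oas1a, Oas2 and Dhx58, were each lost without naive replicate 1, that of Dhx58 also without naive replicate 2, and the others also without anergic replicate 1 or naive replicate 3 and, save Oas2, naive replicate 2. Mx1 was lost without anergic replicate 2 as well. In the order named the adjusted p-values reached 0.0968, 0.156, 0.0757, 0.1004, 0.0742 and 0.0668. The count of lower calls was 4 without naive replicate 1 and 20 without anergic replicate 3, the anergic library with the highest levels of Irf7, Oas3 and Isg15. One day after HEL these genes varied widely, with Irf7 at 34.6 to 266 TPM, and anergic cells were lower than HEL cells for Irf7 (-2.24 ± 0.49, adjusted p = 0.00622). With a spread estimated from all 16 libraries of the same number series, which include those HEL libraries, the calls of Irf7, Oas1a, Oas2, Mx1, Mx2, Ifit1 and Dhx58 were lost. Of 9 dendritic cell markers, which include the interferon-stimulated Bst2, 3 were tested and 2 were called lower, Bst2 and Flt3 (-1.53; lost without anergic replicate 1 or naive replicate 3, adjusted p of up to 0.0612, and in the libraries without Cd23-cre, adjusted p = 0.0843). They summed to 79.7 to 112 TPM in anergic libraries, against 169 to 203 TPM in naive libraries, most of it Bst2, and Siglech did not exceed 0.117 TPM. Their part in the interferon result was not tested. In the Toll-like receptor pathway 2 of 24 tested genes were called lower and none higher (median 0.03): Irf7 and Irak3, an inhibitor of the pathway (-0.96 ± 0.11, adjusted p = 0.0022), and both calls held with any 1 library left out. Of 19 tested NF-kB genes 2 were called higher and none lower (median 0.17), namely Nfkbid, an atypical inhibitor of the pathway (1.11 ± 0.18, adjusted p = 0.0105), and Nfkbie (0.54), whose call was lost without naive replicate 1 or 2 (adjusted p of up to 0.0749).

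**Figure D5:**
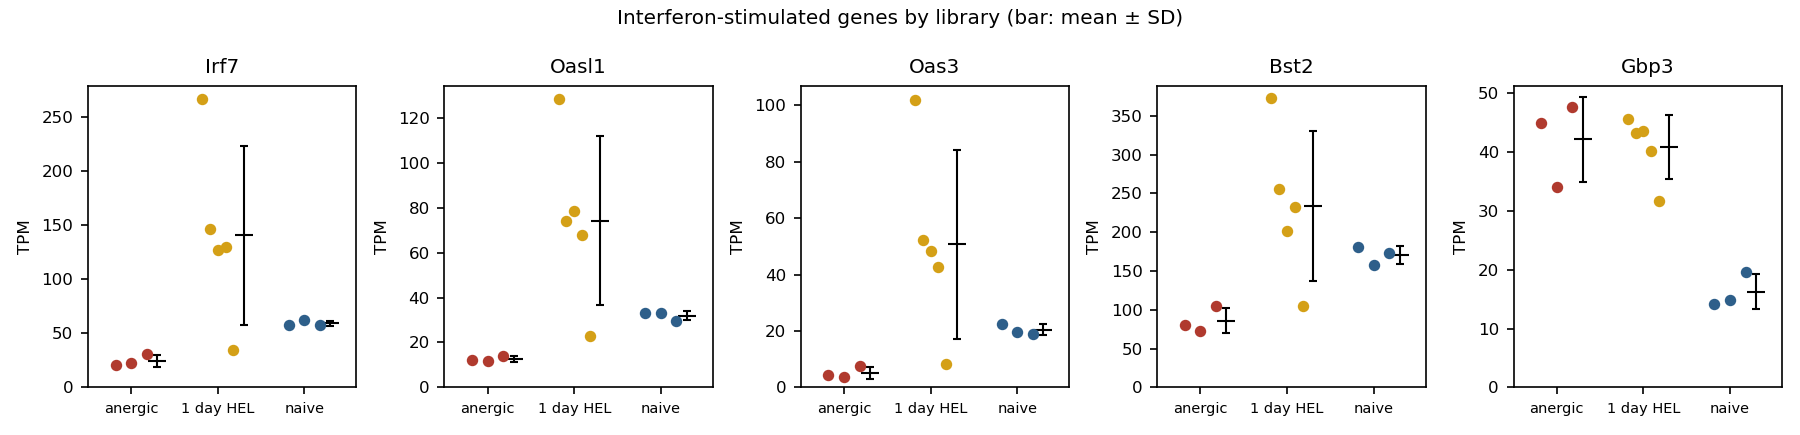
TPM of 5 interferon-stimulated genes in anergic libraries (n = 3), libraries 1 day after HEL (n = 5) and naive libraries (n = 3); points are libraries and bars give mean ± SD. The anergic libraries lie below the naive ones for Irf7, Oasl1, Oas3 and Bst2 and above them for Gbp3, and the HEL libraries spread widely for the first 4.

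Homing and niche genes changed in both directions. Of 25 tested homing genes 2 were called higher and 3 lower (median -0.09), beside 4.48% and 2.89% of all genes tested. Gpr34 and Itgam, among the lower, were tested through the naive libraries alone. S1pr3, a sphingosine phosphate receptor found on marginal zone cells, averaged 5.59 ± 1.00 TPM in anergic cells and 1.25 ± 0.18 TPM in naive cells (SD, n = 3 each; 1.54 ± 0.16, adjusted p = 0.00151), and Gpr34, a lysophosphatidylserine receptor, was lower (-1.76 ± 0.25, adjusted p = 0.00564). The calls of Itga4 (-0.53, marked as overlapping another gene) and Itgam (-1.47) were lost without naive replicate 1 or 2, that of Itgam also without anergic replicate 1 and that of Itga4 without naive replicate 3, with adjusted p-values of up to 0.122 and 0.0672. The follicular homing receptors Cxcr5 and Ccr7 were not called (-0.06 and 0.02), nor was S1pr1, which guides exit from lymphoid tissue (-0.32). Of 13 tested marginal zone and Notch genes 2 were higher and 2 lower (median -0.21). The Notch targets Hes5 and Hes1 went opposite ways: Hes5 had 9.90, 12.2 and 9.64 TPM in anergic libraries, against 3.35, 4.49 and 3.68 TPM in naive libraries (1.26, adjusted p = 0.00203), and Hes1 was lower (-0.85, adjusted p = 0.0123; 0.0548 without naive replicate 1). The call of Cd9 (-0.98) was lost without anergic replicate 1 or 2 or naive replicate 1 or 2, with an adjusted p of up to 0.155. Rgs2 and Rgs3, which shorten signals of G protein-coupled receptors, both rose by 2.08 (SE 0.30 and 0.22, adjusted p = 0.00578 and 0.00151), 2 of 8 tested RGS genes.

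Other genes named for the size of their change fell outside these pathways. Ndrg1, a growth arrest and stress gene also known from anergic T cells, had 32.6, 31.0 and 58.9 TPM in anergic libraries, against 1.20, 0.853 and 0.640 TPM in naive libraries (4.41 ± 0.24, adjusted p = 7.63e-05). After 1 day of HEL it stood at 0.794 to 2.11 TPM (4.14 ± 0.23 for anergic against HEL cells, adjusted p = 8.51e-06; 0.27 ± 0.19 for HEL against naive cells, adjusted p = 0.257). Ephx1, an epoxide hydrolase, had 327, 324 and 339 TPM in anergic libraries, against 28.1, 42.0 and 31.0 TPM in naive libraries (3.27 ± 0.14, adjusted p = 2.76e-05), and 191 to 218 TPM after HEL. After 1 day of antigen Ndrg1 thus overlapped the naive libraries, while Ephx1 lay between the naive and the anergic libraries. Rgl1, an effector of Ras-like GTPases, rose by 3.24 ± 0.13 and Ets2, a factor downstream of ERK, by 3.03 ± 0.23 (adjusted p = 2.76e-05 and 0.000387), and anergic cells exceeded HEL cells by 2.59 ± 0.16 and 2.10 ± 0.15. Litaf, a lysosomal membrane protein, rose by 2.48 ± 0.11 (adjusted p = 2.76e-05). Apoe, a lipid carrier, had 452, 553 and 262 TPM in anergic libraries, against 46.3, 89.0 and 43.3 TPM in naive libraries (2.82 ± 0.33, adjusted p = 0.00228). Macrophages also express Apoe. Of the 12 myeloid markers 7 were tested and none was called. The 12 markers summed to 15.8, 8.54 and 72.6 TPM in the same anergic libraries, against 29.7, 53.7 and 24.1 TPM in naive libraries. Their part in the Apoe result was not tested. F2rl1, Faah, Mreg and Crisp3 completed the most raised genes, with log2 differences of 3.02, 2.99, 2.92 and 2.88.

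The most lowered genes had varied roles. Lrrc25, a leucine-rich repeat receptor, had 4.07, 4.55 and 5.98 TPM in anergic libraries, against 45.1, 47.5 and 43.3 TPM in naive libraries (-2.99 ± 0.13, adjusted p = 2.76e-05). S100a6, a calcium-binding protein, had 12.9, 7.53 and 13.6 TPM in anergic libraries, against 119, 93.2 and 73.5 TPM in naive libraries (-2.98 ± 0.24, adjusted p = 0.000468). Both were also lower 1 day after HEL, where HEL against naive cells gave -2.54 ± 0.12 and -2.59 ± 0.21 (adjusted p = 1.19e-06 and 1.82e-05), and Lrrc25 stood at 5.36 to 8.70 TPM and S100a6 at 11.6 to 22.4 TPM. Ass1, the arginine-making enzyme argininosuccinate synthase, had 8.50, 7.27 and 13.0 TPM in anergic libraries, against 61.6, 40.3 and 58.7 TPM in naive libraries (-2.38 ± 0.22, adjusted p = 0.000912), and lay between at 19.4 to 26.6 TPM after HEL. Rap1gap2, which switches off Rap1, the scaffold Ahnak, the membrane protein Myadm, the protease Amz1 and the kinase Dyrk3 fell by 2.19, 2.15, 2.04, 2.20 and 2.15 on the log2 scale, and Lurap1, Lifr and Cyp27a1 by 2.50, 2.06 and 2.05. All of these kept their calls with any 1 library left out, as did Pltp (-1.99), which is marked as overlapping another gene. Alox5ap (-2.22), Dkkl1 (-2.06), Tmem176a (-1.95), Tmem176b (-1.90), S100a4 (-1.92), Eng (-2.21) and Mir7115 (-2.33), the last 2 marked as overlapping other genes, each lost the call without naive replicate 1, with adjusted p-values of up to 0.101, 0.0762, 0.137, 0.108, 0.0785, 0.101 and 0.0988. The calls of Alox5ap, Dkkl1, Tmem176a, Tmem176b and Eng were lost also without anergic replicate 1 or naive replicate 3, that of Tmem176a without anergic replicate 2, that of S100a4 without naive replicate 2, and that of Mir7115 without anergic replicate 2 or 3 or naive replicate 2 or 3. Tmem176a and Tmem176b were lowest among naive libraries in replicate 2 and highest among anergic libraries in replicate 3, with Tmem176b at 5.40, 5.10 and 11.2 TPM in anergic libraries against 37.4, 15.4 and 37.8 TPM in naive libraries.

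Some further lists are given here, and over all genes tested 7.37% were called. Of 81 tested cytosolic ribosomal protein genes, a list added after values were seen, 1 was called higher (Rpl6, 0.35) and none lower, with a median of 0.23 against 0.07 over all genes. The Rpl6 call was lost without anergic replicate 1 or 3 or any naive library (adjusted p of up to 0.208), and the count ran from 0 to 30 with 1 library left out. Among 21 tested cholesterol genes only Apoe was called, and among 12 tested TNF family receptors only Traf5, an adaptor (-0.43; lost without anergic replicate 1 or any naive library, adjusted p of up to 0.143). Of 13 heat shock and handling stress genes Hspd1 was called higher (0.46; lost without anergic replicate 2 or 3 or any naive library, adjusted p of up to 0.168) and Hspa1b, an inducible chaperone, lower (-1.84 ± 0.30, adjusted p = 0.00934; 0.167 with the spread from all 16 libraries).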

How the data were processed

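RNA was sequenced from sorted mouse B cells, and the deposited values were TPM per gene and library, summing to 1000000 in each. Per the submitters' processing notes, TopHat 1.4.1, Bowtie, SAMtools 1.4 and featureCounts 1.5.0 were used with the mm9 build. Whether counting used strand is not given in the sources used here. Whole reads were recovered from the TPM steps for 100% of 18843 genes above 0 (tolerance 0.01 of a read) and served for depth and for voom, which called 999 genes. For each gene with at least 1 TPM in 3 libraries, limma 3.58.1 (R 4.3.3) compared the groups. Its input was log2(TPM + 1), its variance prior followed the mean expression, and p-values were adjusted by Benjamini-Hochberg over all tested genes. Fold changes on this scale understate changes of low genes. Of 24732 genes, the file marks 3539 as overlapping another gene. In simulated data for anergic against naive cells (10559 genes), 46.3% of 1.5-fold, 82.1% of 2-fold and 93.9% of 4-fold changes were recovered. In the same data 13 unchanged genes were called. Changed genes were drawn without those of few reads, and the widest spreads were capped, so recovery of low or variable genes was not measured.

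The comparison and 40 gene lists (791 genes, 646 tested) were chosen with earlier results of these data known, and 4 more lists, of immunoglobulin and ribosomal genes, after values were seen. List members may be named, and outside the lists the 20 most raised and 20 most lowered called genes with a mean of at least 5 TPM in the higher group and no overlap between groups, and the 10 smallest adjusted p-values. Alternatives changed the pseudocount, filter, scaling, spread, Cre covariate and libraries. A few genes are not reported here. Counting error alone sets the floor of 3 reads.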

Additional observations from a re-analysis of the deposited data

Results flagged for a closer look

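In the 5 libraries taken 1 day after HEL, a single library stood apart from the other 4 for Cd72. The lowest Cd72 library had 272.0 TPM, and the others lay between 329 and 347 TPM. Chance sets apart about 1 in 20 groups of this size by the gap used here. Groups of 3 libraries, such as the anergic and the naive ones, were not screened in this way.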

How the results depend on the processing

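Of 175 called genes on the lists or named by their size, 97 kept their call with any 1 library left out, 109 under every other setting and 94 under all. Leaving out 1 library gave 319 to 1172 calls between anergic and naive cells, 201 to 720 higher, 118 to 452 lower, and 75 to 165 calls on the lists. A spread from all 16 libraries of the number series gave 1704 calls, 1082 higher and 622 lower, with 203 on the lists; the cause was not tested. Voom on recovered reads gave 999 calls, of which 508 were lower. The other settings gave 579 (no filter) to 852 calls (median-ratio scaling). Anergic against HEL cells gave 2505 calls after median-ratio scaling, 1073 higher and 1432 lower, and 2813 to 5236 calls, 2430 to 4576 of them higher, with 1 library left out. HEL against naive cells gave 2214 higher and 2004 lower after median-ratio scaling. The uncalled Nab1 ranged from -0.16 to 0.28 with 1 library left out, including -0.05 without anergic replicate 3. No paired analysis was possible because the labels give the anergic and naive libraries no shared replicate numbers; the numbers used here follow accession order. A sex covariate could not be fitted, since all 6 libraries were male. Depth limits genes under about 1 TPM, and 2 of 3 libraries in each group lack Cre, so the Cre-carrying genotype was seen once per group.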
